A study of Mus musculus with 2 samples.

Results

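The major urinary protein (Mup) cluster on mouse chromosome 4 and the alpha-defensin cluster on mouse chromosome 8 are described here from a microarray comparison of DNA methylation in embryonic fibroblasts with and without thymidine. The probes were those whose start in the mm9 build lay between 60 and 61.72 Mb of chromosome 4, or between 22.15 and 22.46 Mb of chromosome 8. These windows held 147 and 95 probes, together 242 of the 174638 probes on the array. The windows had been chosen by low ratios of methylated to input DNA in earlier results of these arrays, so the low level of both clusters is a description and carries no test.

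Mouse embryonic fibroblasts (MEFs) are connective tissue cells cultured from embryos, here from C57BL/6 embryos at stage E14.5. In both groups, cells carrying the surface proteins CD45, CD41, CD31 and c-Kit, which mark blood progenitors among others, had been removed with beads, and what remained was cultured on MEF feeders treated with mitomycin. The untreated group had no thymidine, and the thymidine group had 100 µM thymidine, a DNA nucleoside, in its medium for 2 days. The source label of the thymidine sample also names a CD45 sort, so the treatment and the sort cannot be told apart. Sheared DNA of 200 to 1000 bp was precipitated with an antibody against 5-methylcytosine (MeDIP). Whether the feeder cells were taken away beforehand is not stated in the labels. The precipitate was labelled with Cy5 and the input with Cy3 on both arrays, so dye bias was not balanced. The input of the thymidine array is called untreated MEFs in its source name and thymidine-treated in its characteristics, which leaves its culture unsettled. Each group had 1 array, no p-value could be given, and every spread quoted is one over probes.

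The antibody used in MeDIP captures fragments that carry methylated cytosines, which in mammalian DNA lie mostly in CG dinucleotides, so the precipitate signal depends on how many CG a fragment holds as well as on their methylation. Major urinary proteins are lipocalins, small carrier proteins that the liver secretes and that bring volatile pheromones into the urine. Alpha-defensins, called cryptdins in the mouse, are antimicrobial peptides that Paneth cells release into the crypts of the small intestine. Both families lie as arrays of closely related gene copies, and fibroblasts are a main source of neither. The arrays measured DNA and not expression. The array files name no genes and no mm9 annotation was used, so the cluster names come from the windows and were not checked gene by gene. In the RefSeq gene table of another build, GRCm38.p6, 22 genes with Mup symbols all lay on chromosome 4, and 22 of the 24 protein-coding genes between the outermost of them were Mup genes. The 28 alpha-defensin (Defa) genes of that table all lay on chromosome 8, and 28 of the 30 protein-coding genes between their outermost members were Defa genes.

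Promoter sequence shows how alike the copies are and how few CG they hold. RefSeq promoter windows of 300 bases, from 250 before to 50 after the gene start in GRCm38.p6, were at hand for 14 Mup and 16 Defa genes. A Mup window held a median of 3 CG (range 1 to 4) and a Defa window a median of 1 CG (range 0 to 3), against 7 (range 0 to 67) over 32851 promoters. At most 2 CG were found in 6 of the 14 Mup and 15 of the 16 Defa windows, and in 23.3% of all windows. The search was for the letters CG, which read the same on both strands. Aligned in pairs, the Mup windows had a median identity of 94.1% (83.8% to 100% over 91 pairs) and the Defa windows 86.0% (79.1% to 100% over 120 pairs). Identity was counted over aligned bases only, without gaps and overhanging ends. Windows with shifted starts were thus compared over their overlap and not over all 300 bases. Which of these promoters the array tiles cover was not established, because the array is on mm9, so the CG counts describe the genes and not the probes. The part of CG content in the ratios was not tested.

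The 250 bases before the start are shown for the Mup genes with the fewest and the most CG, the second of which is also the lowest numbered, with CG in capitals. They are Mup7 (chr4:60070476-60070725, minus strand) and Mup2 (chr4:60139857-60140106, minus strand), both in GRCm38.p6.
Mup7: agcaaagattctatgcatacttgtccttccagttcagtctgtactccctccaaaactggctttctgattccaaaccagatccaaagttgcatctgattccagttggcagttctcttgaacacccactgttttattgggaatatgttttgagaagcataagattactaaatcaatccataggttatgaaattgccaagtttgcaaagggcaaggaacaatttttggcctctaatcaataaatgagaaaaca
Mup2: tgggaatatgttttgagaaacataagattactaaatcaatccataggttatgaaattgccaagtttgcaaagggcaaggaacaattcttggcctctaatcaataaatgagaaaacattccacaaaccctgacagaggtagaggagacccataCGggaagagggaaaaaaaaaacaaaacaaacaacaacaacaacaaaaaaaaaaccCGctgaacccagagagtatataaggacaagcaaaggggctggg
The Mup7 window had no CG before the start and 1 in all 300 bases, and the Mup2 window had 2 and 4. The longest stretch they shared letter for letter was 66 bases, at positions 155 to 220 of the Mup7 sequence and 21 to 86 of the Mup2 sequence, so the annotated starts of these copies lie at different distances from the same sequence.

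For the alpha-defensins the same rule gave Defa41 with the fewest CG (chr8:21201354-21201603, plus strand), Defa30 with the most (chr8:21134400-21134649, plus strand) and Defa2 as the lowest numbered (chr8:21378267-21378516, plus strand), in GRCm38.p6.
Defa41: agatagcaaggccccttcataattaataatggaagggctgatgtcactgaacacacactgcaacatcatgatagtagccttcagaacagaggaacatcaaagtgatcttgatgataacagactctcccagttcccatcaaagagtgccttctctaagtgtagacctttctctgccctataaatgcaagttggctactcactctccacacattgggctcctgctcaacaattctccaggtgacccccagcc
Defa30: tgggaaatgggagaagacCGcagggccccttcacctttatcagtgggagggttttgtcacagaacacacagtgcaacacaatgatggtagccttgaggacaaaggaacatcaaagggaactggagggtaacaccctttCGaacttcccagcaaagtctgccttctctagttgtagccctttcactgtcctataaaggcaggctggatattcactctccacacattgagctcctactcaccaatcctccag
Defa2: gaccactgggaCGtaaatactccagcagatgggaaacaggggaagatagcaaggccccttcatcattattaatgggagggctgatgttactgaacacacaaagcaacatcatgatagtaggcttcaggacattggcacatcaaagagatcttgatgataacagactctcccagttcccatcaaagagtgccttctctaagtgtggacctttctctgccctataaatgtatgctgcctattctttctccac
Defa41 had no CG in its whole window of 300 bases, Defa30 had 3 and Defa2 had 1. Defa41 and Defa2 shared a stretch of 57 bases, and Defa30 shared at most 17 bases in a row with Defa41 and 11 with Defa2.

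The value of a probe was the log2 ratio of the precipitate (Cy5) to the input (Cy3) processed signal, centred on the median of its array, so that 0 is the typical probe. Probes with an outlier flag, or with an input not well above background on both arrays, were left out, which kept 142 of the 147 Mup and 89 of the 95 defensin probes. Of all probes, 142569 were kept. Both channels were well above background on both arrays at 69 of the kept Mup probes (48.6%) and 47 of the kept defensin probes (52.8%), against 82.8% of all kept probes. Where the precipitate was not well above background, a ratio is only an upper limit, and the limit was taken from the lowest precipitate signal of that array that was well above background. A dim signal above that level kept its own ratio, so these limits are approximate. Repeated control spots had a median SD of 0.09 on the untreated array, 0.11 on the thymidine array and 0.14 for the difference, which covers the spots of an array and not a repeated culture.

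The Mup cluster had a median log2 ratio of -2.67 on the untreated array (SD over probes 1.60, quartiles -3.86 and -1.17, n = 142) and of -2.17 on the thymidine array (SD 1.54, quartiles -3.55 and -1.20). The alpha-defensin cluster lay nearer to the array median, at -1.87 (SD 1.26, quartiles -2.63 and -0.84, n = 89) and -1.53 (SD 1.18, quartiles -2.37 and -0.58). With dim precipitates set to their upper limit the medians were -1.83 and -1.54 for Mup and -1.07 and -0.94 for the defensins. A ratio of -1 or less was found at 118 Mup probes on the untreated array (83.1%, 95% Wilson interval 76.1% to 88.4%), against 15.0% of all probes, and at 112 on the thymidine array (78.9%), against 11.3% of all probes. In the defensin cluster it was found at 62 probes on the untreated array (69.7%, interval 59.5% to 78.2%) and 61 on the thymidine array (68.5%). The intervals treat probes as independent, which copies of a sequence are not. Neither cluster was low throughout, and the highest probes stood above the array median, at up to 1.50 in the Mup and 0.72 in the defensin cluster on the untreated array.

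The probes lay in tiles of 5 to 9 probes with a median spacing of 209 bp and long gaps between tiles. The Mup window held 18 tiles, 1479 to 1796 bp wide, whose starts were 52884 to 218936 bp apart with a median of 79962 bp. All 18 had a median ratio of -1 or less on both arrays, against 3.49% of all tiles with at least 3 kept probes, as the choice of the window implies. The lowest was chr4:60434398-60436025, with -3.55 on the untreated array (SD 1.90, n = 8 probes) and -2.97 on the thymidine array (SD 1.87). Next came chr4:60152298-60153927 (-3.31 and -2.90), chr4:60888832-60890459 (-3.38 and -2.83) and chr4:60514360-60516064 (-3.02 and -3.11). The SD within each of these tiles, 1.58 to 1.90, was larger than the differences between their medians.

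The least low Mup tiles stood at the distal end of the window. They were chr4:61714652-61716377, with -1.11 on the untreated and -1.22 on the thymidine array, and chr4:61495716-61497453, with -1.71 and -1.20. The tiles chr4:60594593-60596075 (-2.55 and -2.03) and chr4:60674802-60676545 (-2.57 and -2.15) followed. The remaining 10 tiles had medians from -3.20 to -2.54 on the untreated and from -2.92 to -2.10 on the thymidine array. The highest Mup probe of all, chr4:61496156-61496206, lay in the distal pair of tiles and had 1.50 on the untreated and 1.43 on the thymidine array, while the next highest, chr4:60434813-60434857, lay in the lowest tile and had 0.57 and 0.77. The lowest probes were chr4:61180980-61181024, at -5.31 and -5.19, and chr4:60435289-60435333, at -5.16 and -5.04. Their precipitate was not well above background on either array, and the limits were -3.81 and -3.05 for the former and -3.67 and -2.91 for the latter. Their input lay at the 84.6 percentile or above on the untreated array.

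The defensin window held 13 tiles, 1019 to 1744 bp wide, with starts a median of 23648 bp apart. On the untreated array their medians ran from -2.80 to -1.09, and on the thymidine array from -2.13 to -0.91. The lowest were chr8:22454575-22455593 (-2.80 and -2.13, n = 4 probes), chr8:22330350-22331697 (-2.39 and -1.96), chr8:22193817-22195164 (-2.25 and -2.0) and chr8:22426176-22427526 (-2.23 and -1.56). The highest were chr8:22300673-22302399 (-1.09 and -0.96), chr8:22163947-22165667 (-1.09 and -1.06), chr8:22203417-22205149 (-1.28 and -0.91) and chr8:22235393-22237002 (-1.56 and -1.10). The other 5 tiles ran from -1.96 to -1.41 and from -1.60 to -1.20. The highest probes by the mean of the arrays, chr8:22436176-22436235 (0.70 and 0.85) and chr8:22235620-22235668 (0.66 and 0.84), were above the array median in both groups. The highest on the untreated array alone, chr8:22389564-22389614, read 0.72 and 0.61. The lowest by the mean, chr8:22388707-22388765 and chr8:22436381-22436440, read -4.55 and -4.13, and -4.23 and -3.87, with limits of -2.35 and -1.91, and -2.03 and -1.70. The highest and one of the lowest of these probes were neighbours in the same tile, chr8:22435779-22437522.

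At the proximal edge of the Mup window the ratio went from -1.01 on the untreated and -0.33 on the thymidine array in the last tile outside to -2.98 and -2.30 in the first tile inside. At the distal edge it went from -1.11 and -1.22 inside to -0.82 and -0.59 outside, and the tile after that was low again, at -2.11 and -1.79. At the proximal edge of the defensin window the values were -0.32 and -0.37 outside against -1.09 and -1.06 inside, and at the distal edge -2.80 and -2.13 inside against -0.18 and -0.20 outside. The distal defensin edge is not the end of low tiles, since chr8:22765327-22766677 read -2.09 and -1.89 and chr8:22774972-22776673 read -2.19 and -1.61.

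Some Mup tiles shared a layout of probes. Tiles were set against each other by the longest chain of probes of equal length at equal spacing, with a tolerance of 5 bp. At least 5 probes matched in this way in 26 of the 153 pairs of Mup tiles (17.0%), against 0.224% of pairs elsewhere on chromosome 4, and in 6 pairs 8 probes matched. In the defensin window 3 of 78 pairs matched (3.85%), against 0.342% elsewhere on chromosome 8. The tiles chr8:22765327-22766677 and chr8:22774972-22776673 beyond the distal edge each shared 6 probes with a tile inside the window. Also beyond it, chr8:22566652-22568258 (-0.63 and -0.22) and chr8:22704600-22706206 (-0.95 and -0.48) each shared 5 probes with chr8:22235393-22237002 inside. These were less low than that tile, at -1.56 and -1.10, so a shared layout did not always go with a like ratio. The layout bears only on probe lengths and positions, since probe sequences were not read. Probes that match may have the same sequence and then read DNA of several copies at a time, so matched tiles are not independent measurements.

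Linked through chains of at least 3 probes, 15 of the 18 Mup tiles could be laid on a common axis whose last probe started at 1694 bp, and each place on it that probes of several tiles occupied is called a site. The tile on the proximal edge and the pair at the distal end, among them the least low tiles, had no place on it. Ratios were alike within a site and unlike between sites. Over the 13 sites with at least 3 kept probes (108 probes), the pooled SD of probes within a site was 0.40 on the untreated and 0.41 on the thymidine array, while the SD between the medians of sites was 1.56 and 1.41. Tile medians on the axis had an SD of 0.35 and 0.34. With dim precipitates at their limits the SD was 0.35 and 0.32 within sites and 1.1 and 0.99 between them. On the 6 sites measured in both channels on both arrays (50 probes) it was 0.32 and 0.26 within and 1.06 and 1.01 between. Where matched probes share a sequence, the spread within a site is that of a repeated measurement and says nothing of how far the copies differ.

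The site at 413 to 436 bp was the high point of the profile. Its 15 probes had a median ratio of 0.36 on the untreated array (range -0.43 to 0.57) and 0.66 on the thymidine array (range 0.07 to 0.78), with both channels measured in all of them. On the side nearer the start, at 207 to 221 bp, the 15 probes of the same tiles had a median of -3.84 (range -4.09 to -2.42) and -3.34 (range -3.94 to -1.64). Precipitate was well above background on both arrays at 1 of those 15 probes, and with limits the medians were -3.54 and -3.04. On the other side, at 612 to 627 bp, the 11 kept probes had medians of -3.77 and -3.58 and none had a measured precipitate, with limits of -1.60 and -1.38. With ratios as read, the range at 413 to 436 bp did not overlap that of either neighbouring site on either array. With limits, the highest probe at 612 to 627 bp stood at -0.35 on each array. That lies above the lowest probe at 413 to 436 bp on the untreated array (-0.43), so the ranges overlap there, but not on the thymidine array. The limits at 207 to 221 bp stayed below the range on both arrays. The 3 sites lie closer together than the length of the longest sheared fragments.

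Towards the far end of the axis the ratios stayed below 0. The lowest site medians, -5.12 and -4.52, were those of 2 probes at 827 to 829 bp whose precipitate was not measured, with limits of -2.90 and -2.34. At 905 to 910 bp the 7 probes had medians of -4.88 and -3.66, as limits -3.56 and -2.78, and the lowest Mup probes of all were among them. At 1019 to 1021 bp the 6 probes were measured in both channels and read -2.70 (range -2.80 to -2.65) and -2.04 (range -2.16 to -1.89). Both channels were also measured at the 2 probes at 1047 to 1048 bp, with medians of -2.17 and -1.63. The site at 1228 to 1230 bp was higher on each array, with -1.41 (range -2.46 to -1.14) and -1.53 (range -1.91 to -1.25) over 6 probes. The first site, at 0 to 21 bp, was also measured throughout and had medians of -1.06 and -0.84 over 14 probes. The 60-base probes at 1377 to 1381 bp and 1423 to 1425 bp had medians from -4.54 to -3.71, and none of them had a measured precipitate. With limits in place of dim values those medians were -2.47 to -1.47. At 1582 to 1588 bp, where both channels were measured at 6 of 7 probes, medians of -2.26 and -2.06 were found. No precipitate was measured at 1179 to 1182 bp (medians -2.97 and -2.53 over 7 probes) or at 1628 to 1630 bp (-2.82 and -3.11 over 4 probes).

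The input of the Mup cluster was bright and its precipitate dim. The median input signal stood at the 80.3 percentile of all probes on the untreated and the 74.2 percentile on the thymidine array, and the precipitate at the 27.3 and 28.9 percentile. The median kept probe stood at the 59.2 percentile in each channel. On the untreated array the input was 27.5 times its local background in the Mup cluster, against 13.2 times over all probes, and the precipitate 2.76 times, against 8.24 times. At the site at 413 to 436 bp the input reached the 99.4 and 99.2 percentile and the precipitate the 99.5 percentile on each array, so the ratio near 0 there came with the brightest signals of the cluster in both channels. Probes that detect many copies of a sequence have bright input, and the number of copies each probe detects was not tested. At 905 to 910 bp, with ratios of -4.88 and -3.66, the input stood at the 83.3 and 73.9 percentile and the precipitate at the 15.6 and 19.7 percentile. In the defensin cluster the input stood near that of other probes, at the 60.7 and 55.0 percentile, and the precipitate at the 34.5 and 34.4 percentile. On the untreated array the input was 13.6 times background there, and the precipitate 3.63 times.

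Among the defensin tiles 3 sets could be laid on axes of their own, from chains of at least 4 probes, of 2, 4 and 3 tiles. In the set of 3 (chr8:22203417-22205149, chr8:22339983-22341687 and chr8:22435779-22437522) the profile alternated as in the Mup tiles. At 395 to 397 bp the 3 probes had a median of 0.56 on the untreated (range -0.55 to 0.70) and 0.79 on the thymidine array (range -0.19 to 0.85). The lowest of them had no measured precipitate on either array, with limits of -0.26 and 0.22. At 600 to 602 bp the medians were -3.95 and -3.87 (no precipitate measured, limits -1.77 and -1.67). They were -0.26 and -0.44 at 1028 to 1034 bp, and 0.29 and 0.23 at 1448 to 1450 bp. The pooled SD within sites was 0.48 and 0.42 and the SD between sites 1.86 and 1.80, and with limits 0.26 and 0.21 within and 1.13 and 0.96 between. The set of 4 (chr8:22193817-22195164, chr8:22273412-22274746, chr8:22330350-22331697 and chr8:22426176-22427526) was flatter, with site medians from -2.71 to -1.92 on the untreated array. There the SD within sites, 0.41, was larger than the SD between them, 0.30, and on the thymidine array the values were 0.32 and 0.71. With limits they were 0.31 within and 0.71 between on the untreated array and 0.25 and 0.56 on the thymidine array, so the order on the untreated array turns with the limits. On the 3 sites of this set measured in both channels on both arrays (11 probes) the SD within sites was the larger on each array. It was 0.43 and 0.35 within and 0.21 and 0.07 between. In the set of 3 tiles the measured sites (3 sites, 9 probes) had 0.13 and 0.17 within and 0.91 and 0.59 between. In the set of 2 tiles (chr8:22163947-22165667 and chr8:22300673-22302399) the sites at 284 and 489 bp had medians of 0.37 and -3.02 on the untreated and -0.04 and -2.50 on the thymidine array. No precipitate was measured at 489 bp on either array, and the limits were -2.42 and -1.86.

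Steep steps between neighbouring probes were frequent in the Mup cluster. A step of at least 2 on the log2 scale separated 60 of 117 Mup pairs of adjacent probes under 300 bp apart on the untreated array (51.3%), against 9.64% of all such pairs, and 59 on the thymidine array (50.4%), against 6.74%. In the defensin cluster 16 of 70 pairs did so on each array (22.9%). With limits in place of dim values the Mup counts were 52 and 43 and the defensin counts 8 and 3, which are 44.4%, 36.8%, 11.4% and 4.29% of pairs. The shares over all pairs were then 4.91% and 2.69%, so the defensin share on the thymidine array lay near that of the array.

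Probe length differed between the clusters and the array. Probes of 60 bases, the longest, made up 32.0% of the Mup and 31.6% of the defensin probes but 13.2% of all probes, and probes of 45 bases, the shortest, 28.6% and 16.8% against 49.9%. Long probes had lower ratios over the whole array, with medians on the untreated array of 0.16 at 45 bases, -0.26 at 46 to 59 bases and -0.56 at 60 bases. In the Mup cluster these medians were -1.07, -2.56 and -3.82 on the untreated array and -1.06, -1.99 and -3.61 on the thymidine array. Precipitate was measured on both arrays at 29 of 42 Mup probes of 45 bases and at 5 of 42 of 60 bases. Length went with site, since most Mup probes of 45 bases lay at 0 to 21 or 413 to 436 bp. The 7 probes at 905 to 910 bp also had 45 bases, with a median of -4.88 on the untreated array. The parts of length and site were not tested. In the defensin cluster the same classes had -2.11, -1.65 and -2.40 on the untreated and -1.43, -1.41 and -2.48 on the thymidine array, with no steady order. With the array median of each probe's own length subtracted, the medians were -2.33 and -1.87 for Mup and -1.66 and -1.37 for the defensins.

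Longer runs of low tiles on chromosome 7 (485 probes) and chromosome 2 (205 probes) had medians of -2.92 and -2.38 on the untreated and -2.59 and -2.05 on the thymidine array. The Mup medians lay between those of the runs on each array and the defensin medians above them. In each of these runs the input stood above the precipitate, at the 77.1 against the 27.1 percentile and at the 76.8 against the 37.2 percentile on the untreated array. The Mup input, at the 80.3 percentile, stood near that of these runs, and the defensin input, at the 60.7 percentile, below it. No test of these differences was possible with 1 array per group.

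The question the design poses is whether methylation differed after thymidine. Ratios in both clusters were somewhat nearer to 0 on the thymidine array. The difference, thymidine minus untreated, had a median of 0.29 on the log2 scale over the Mup probes (SD 0.30, range -0.73 to 1.26), and 122 of 142 probes were higher (85.9%), against 57.5% of all probes. In the defensin cluster it was 0.22 (SD 0.43, range -0.74 to 1.44), with 55 of 89 probes higher (61.8%). Over all probes the median was 0.07. The low runs on chromosomes 7 and 2 had medians of 0.31 and 0.38, with 85.1% and 84.8% of probes higher, so the Mup share is near that of other low probes. On probes with both channels measured on both arrays the medians were 0.27 (55 of 69 higher) and 0.18 (28 of 47 higher). Over all such probes the median was 0.04, with 64570 of 118061 higher.

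Over the whole array low probes had positive differences, and a probe elsewhere with the same mean ratio had a difference of 0.43 for the median Mup and 0.38 for the median defensin probe. After subtraction of that trend the medians were -0.072 for Mup and -0.068 for the defensins, so the direction of the difference turns with this step. It also turned, to -0.048 and -0.055, when the ratios of the arrays were quantile normalised. Among Mup probes with a mean ratio above 0, 15 of 16 were higher, and the median was 0.27. Over all probes of that level the median was 0.01, with 36538 of 71239 higher. Most of these 16 Mup probes belong to the site at 413 to 436 bp and may share a sequence, so they are not independent. At a mean ratio between -2 and -1 the Mup median was 0.00 (13 of 26 higher), against 0.31 over all probes of that level (9621 of 12354 higher). The 9 defensin probes with a mean ratio above 0 had a median of -0.06, and 3 of them were higher.

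By channel, and centred on all probes, the input signal on the thymidine array differed from that on the untreated array by a median of -0.22 on the log2 scale in the Mup cluster and -0.13 in the defensin cluster, and the precipitate by 0.01 and 0.05. In the low runs on chromosomes 7 and 2 the input differed by -0.22 and -0.25, and the precipitate by 0.02 and 0.05. Over all probes with a mean ratio between -3 and -2 the input differed by -0.48 and the precipitate by -0.006. A lower input is thus not particular to the clusters. A precipitate near background has little room to differ, and the part of this in the values was not tested. On the Mup and defensin probes measured in both channels on both arrays the input differed by -0.19 and -0.10, and the precipitate by -0.01 and 0.08. The culture that gave the thymidine array's input is unsettled in the labels, and its part in the difference was not tested. A difference of at least 1 in size was found at 2 Mup (1.41%) and 2 defensin probes (2.25%), against 1.16% of all probes. Differences over 2 of the scanner software's own errors were found at 3 Mup (2.11%) and 3 defensin probes (3.37%), against 2.95%. These shares are near those of all probes.

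A tile was counted as higher or lower where its median difference reached 0.5 in either direction and 80% or more of the kept probes had that sign. By this rule 0.706% of the 21518 tiles with at least 3 kept probes were higher and 0.0558% lower. None of the 18 Mup tiles passed, and 1 of the 13 defensin tiles was higher. That tile, chr8:22330350-22331697, had a median of 0.58, with 5 of 6 probes higher. The tile chr8:22426176-22427526 had a median of 0.60 but 4 of 6 probes higher and was not counted. All 18 Mup tiles had a positive median, from 0.15 at chr4:60514360-60516064 and 0.16 at chr4:61495716-61497453 to 0.40 at chr4:60888832-60890459 and chr4:61442832-61444455. In the defensin cluster 12 of 13 were positive, and the lowest were chr8:22273412-22274746 at -0.05 and chr8:22223452-22224535 at 0.01. The share of positive tiles over the array was not counted, and 3802 of 4369 probes with a mean ratio between -3 and -2 were higher. With the level trend removed, the tile medians ran from -0.31 to 0.06 in the Mup and from -0.38 to 0.15 in the defensin cluster.

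At some sites the difference repeated from tile to tile. Over all 13 Mup sites with at least 3 kept probes (108 probes), the pooled SD of the difference within sites, 0.24, was no smaller than the SD between site medians, 0.23, and all probes were higher at 7 sites and all lower at 1. Over the 6 Mup sites with at least 3 probes measured in both channels on both arrays (50 probes), the pooled SD of the difference was 0.17 within sites and 0.31 between site medians. All probes were higher at 3 of these sites and all lower at 1. At 1019 to 1021 bp the 6 probes were higher by a median of 0.65 (range 0.49 to 0.88), with the input at -0.65 and the precipitate at -0.07. At 413 to 436 bp all 15 probes were higher, by a median of 0.30 (range 0.02 to 0.50). At 698 to 709 bp the 3 probes were lower, with a median of -0.25 (range -0.30 to -0.22), and there the input differed by 0.25 and the precipitate by -0.11. Since matched probes may share their sequence, a repeated difference is no replicate of the treatment.

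In the defensin set of 4 tiles the spread within sites was larger than that between them where both channels were measured (SD 0.16 against 0.13 over 3 sites and 11 probes). There the probes at 679 bp had a median difference of 0.64 (range 0.39 to 0.74) and those at 870 to 877 bp of 0.65 (range 0.57 to 0.80), all measured in both channels. In the same tiles the 4 probes at 1288 to 1291 bp differed by -0.57 (range -0.67 to -0.30), but no precipitate was measured there. In the set of 3 tiles the site at 1236 to 1237 bp was higher by 0.61 (range 0.46 to 0.70), while the site at 1028 to 1034 bp stood at -0.18 (range -0.42 to -0.12). Both tiles with the highest differences in the cluster belong to the set of 4, which shares the sites at 679 and 870 to 877 bp. The tile with the lowest difference in the cluster, chr8:22273412-22274746 at -0.05, belongs to the same set. Its probes at these sites were higher by 0.39 and 0.57.

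The authors' deposited table of log ratios gave the clusters low values too but no rise. Its medians over all probes of the windows were -1.78 on the untreated and -1.88 on the thymidine array for Mup and -1.04 and -1.24 for the defensins, against -0.01 and -0.02 over all probes. In the authors' deposited table the median difference was -0.06 for Mup and -0.10 for the defensins, the opposite sign to the scanner values. The log base of that table and any smoothing of it are unknown here.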

How the data were processed

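DNA methylation was measured by MeDIP on 2 arrays, 1 of untreated and 1 of thymidine-treated MEFs. Per the file headers, the scans were processed in Agilent Feature Extraction 11.0.1.1 with an mm9 grid, and the deposited intensity values are processed signals, background-subtracted and scaled by a linear dye factor, and raw medians of spot and background. The deposited log10 ratios and their errors are the scanner software's, per the file headers. The authors' deposited table was taken as log2 ratios, although its log base is not stated. For its normalisation the sources used here give no method.

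From these, log2 ratios of the processed signals were centred per array on the median of the 142569 kept probes, with no loess or quantile step. Control spots (5827) were left out, 57 probes had an outlier flag, and 32018 had an input not well above background on both arrays. Tiles were runs of probes with gaps under 1000 bp between starts. The tile count was tested on simulated data. Alternatives were another filter, background, normalisation, length or tile gap. The normexp alternative used median signals, the mean signals not being used here, with an offset of 50. Raising dim precipitates to the lowest measured signal, the probe matching and the sites were chosen after seeing the data. Named tiles are the 4 lowest and 4 highest by mean ratio and the 2 highest and 2 lowest by difference in each cluster, and named probes the 2 lowest and 2 highest. Other tiles and sites were named after their values were seen. The members and lists were chosen with earlier results of these data known. Promoters are of GRCm38.p6, whose coordinates were not joined to the array. The number of arrays limits the precision, and slide and scan cannot be told apart from the group. Python 3.11.15, pandas 2.3.3, Biopython 1.88, R 4.3.3 and limma 3.58.1 were used.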

Additional observations from a re-analysis of the deposited data

How the results depend on the processing

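With both channels required to be well above background, the median ratio was -1.30 (untreated) and -1.34 (thymidine) for Mup and -1.11 and -0.93 for the defensins, and 72.5%, 60.9%, 55.3% and 46.8% of those probes had a ratio of -1 or less. With normexp these values were -1.30, -1.21, -0.79 and -0.68, and 64.1%, 64.1%, 37.1% and 21.3%. Raw median signals gave -1.98, -1.63, -1.31 and -1.06, with 52.8% for the defensins on the thymidine array. Loess gave -2.31 for Mup and -1.45 for the defensins on the untreated array. Probes of 60 bases gave -3.82, -3.61, -2.40 and -2.48, with 100% of Mup probes at -1 or less on each array. The authors' deposited table gave -1.80 and -1.90 for Mup and -1.05 for the defensins on the untreated array, with 88.0% (Mup, thymidine) and 52.8% (defensins, untreated). The precipitate limit, chosen after seeing the data, gave -1.83, -1.54, -1.07 and -0.94. Every median ratio stayed below 0 under these settings.

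The median difference between the arrays turned negative under the authors' deposited table (-0.067 for Mup, -0.11 for the defensins), quantile normalisation (-0.048 and -0.055) and removal of the level trend (-0.072 and -0.068). For Mup it was 0.19 with normexp and 0.22 with loess. The count of 1 tile over both clusters became 3 with both channels well above background, each tile over 3 probes. These were 2 defensin tiles, and the Mup tile chr4:60015121-60016916 with a median of 0.50. Over the array, 78 of 20139 tiles were higher and 14 lower under that setting. The cluster count became 0 with no filter on dim probes, normexp, loess or 60-base probes. It was also 0 with the authors' deposited table, quantile normalisation or removal of the level trend. Across all tiles, the main setting gave 152 higher and 12 lower, no filter 105 and 4, and loess 109 and 22. Normexp gave 2 and 3, quantile normalisation 15 and 36, removal of the trend 14 and 39, and the authors' values 0 and 36. Only 432 tiles could be tested with 60-base probes, of which 23 were higher and 1 lower. The counts of 0 thus do not show a loss particular to the clusters. Among 60-base probes the input stood at the 55.3 and 53.5 percentile for Mup and the 33.0 and 37.7 percentile for the defensins, and the precipitate at the 8.13, 8.42, 15.0 and 13.3 percentile. The cause was not tested in any of these cases.

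Of all the values recomputed under another setting, 56 moved out of the interval of the main value (for the tile count, by over 1.5 times), 6 turned their direction and 61 did neither. Signal over background limits the lowest ratios, since the precipitate was not well above background on both arrays at most cluster probes with a mean ratio of -2 or less. No paired analysis was possible because each group had 1 array, and for the same reason no array could be left out.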

Other observations

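Beta-defensin (Defb) genes, which encode antimicrobial peptides of epithelia, are the related family on chromosome 8, where 24 of the 43 Defb genes of the RefSeq table (GRCm38.p6) lie. Of 29 Defb promoter windows of 300 bases, 19 held at most 2 CG, with a median of 1 and a range of 0 to 8. The array tiles over these genes were not located, so no ratio is given for them.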
